A study of Nothobranchius furzeri with 20 samples.

Results

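In the liver of turquoise killifish (Nothobranchius furzeri, males of strain MZM-04/10p), 123 of 26739 gene identifiers stood higher in every library from fish of 27 weeks than in any library from fish of 9 weeks, in both runs of sample titles at the older age and with little difference between exercised and unexercised fish at the younger age. These genes were chosen on the measured values themselves. A gene was a member if its mean over the 20 libraries was at least 1 and under 1000 CPM (the read count relative to library size, here scaled with TMM factors, the trimmed mean of M values), if all 10 libraries at 27 weeks lay above all 10 at 9 weeks, if the means with and without exercise at 9 weeks differed by at most 1.3-fold, and if the means of the 2 title runs at 27 weeks differed by at most 2-fold. Every ratio was taken after adding 0.5 CPM. The rule allowed for up to 150 genes, and 123 met it, so all of them were taken. Members are ranked by the lowest 27-week value over the highest 9-week value. Since all 20 libraries entered the choice, the differences between ages, between runs and between exercise groups are descriptions of these libraries, and counts of calls from fits of all genes are printed with nothing read from them.

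The groups were 5 libraries at 9 weeks with no perturbation, 5 at 9 weeks after swim-tunnel exercise and 10 at 27 weeks after swim-tunnel exercise. All came from the same strain, sex and organ. Titles at 27 weeks are numbered JM132 to JM136 (called run A here, replicates 1 to 5) and JM140 to JM144 (run B, replicates 6 to 10), and the labels give both runs the same age and exercise. No library at 27 weeks is labelled as unexercised. The age difference can be set against both 9-week groups, but age and exercise cannot be told apart in the comparison with unexercised fish. The labels do not say that each library came from a separate fish.

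The turquoise killifish lives in seasonal pools and has one of the shortest lifespans of any vertebrate kept in the laboratory, which is why it serves as a model of ageing. Its liver, like that of other vertebrates, makes plasma and lipid transport proteins, stores and releases glucose and fat, and detoxifies. No gene name stands beside an identifier in the files, and 0 identifiers matched the RefSeq gene table of the species, so no function is given to any member, no pathway list or liver marker could be read, and no sequence is shown. Apart from the 2 members of highest rank, members are called by rank. In bulk tissue, a change in the share of a cell type and a change in RNA per cell cannot be told apart.

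Library totals ran from 22.4 to 44.6 M counts (M, mega). Within run A, replicates 4 and 5 stood apart: their 100 most abundant genes took 40.0% and 39.1% of the counts, against 44.5% to 53.9% in the other 18 libraries, and their TMM factors were 1.52 and 1.47, against 0.841 to 1.21 elsewhere. No member had a count of 0 in any library, all but 2 had at least 10 counts in all 20, and 87 had at least 100.

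Across the 14161 genes in the same abundance range, 176 (1.24%) had all 27-week libraries above all 9-week ones and 189 (1.33%) had them all below. The 123 members were 0.869% of that range. Each run by itself gave different counts: 16.7% of the 14161 genes had run A above all 9-week libraries and 2.55% had run B there. Members were 1.8-fold higher at 27 weeks by the median ratio of means, from 1.29-fold to 6.30-fold, where the median ratio over the 14161 genes was 1.02. There were 20 members under 1.5-fold, 59 from 1.5-fold to under 2-fold, 27 from 2-fold to under 3-fold and 17 of 3-fold or more. In the edgeR quasi-likelihood fit of all genes with Benjamini-Hochberg adjustment, all 123 were among the genes called higher at 27 weeks, both against exercised fish (17.3% of 17118 genes called higher) and against unexercised fish (10.8%). The rule used these contrasts, so nothing is read from that count.

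**Figure D1:**
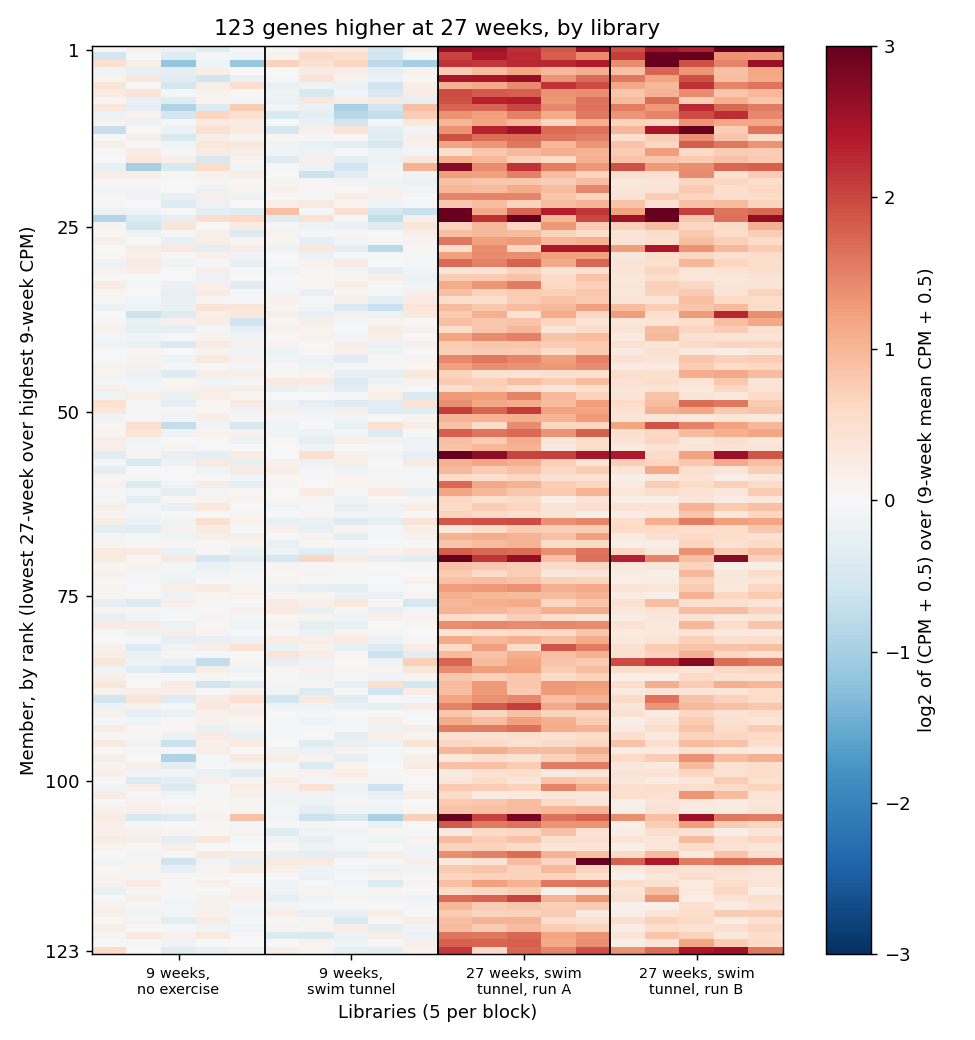
Colour gives the log2 ratio of each member's CPM to its own 9-week mean (both + 0.5), with members in rows by rank and the 20 libraries in columns, 5 per block; colours saturate at 3 on either side of 0. The 2 blocks at 9 weeks stay near 0 and both blocks at 27 weeks are above it, with single dark cells where one library exceeds the others. Run A is mostly deeper in colour (100 of 123 members by their run means, beside 54.9% of genes in the abundance range).

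Nfu_g_1_002924 had the widest gap between the ages. In unexercised livers at 9 weeks (replicates 1 to 5) it stood at 6.38, 7.10, 5.54, 4.78 and 6.28 CPM, and in exercised livers at 9 weeks at 6.27, 7.62, 7.80, 4.25 and 7.17 CPM. In run A at 27 weeks the values were 42.1, 38.9, 30.7, 24.4 and 39.3 CPM, and in run B 25.3, 37.5, 33.6, 91.8 and 61.1 CPM. The lowest library at 27 weeks was thus 3.00 times the highest at 9 weeks, and the next member on this ratio had 1.66. The 2 groups at 9 weeks overlapped and so did the 2 runs, although replicates 9 and 10 of run B were above all of run A. The means were 6.02 ± 0.88 CPM without exercise and 6.62 ± 1.45 CPM with it at 9 weeks (SD, n = 5 each), and 42.5 ± 20.2 CPM at 27 weeks (SD, n = 10). The fitted log2 difference of the 27-week group was 2.68 ± 0.29 from exercised and 2.82 ± 0.30 from unexercised livers (edgeR, SE).

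Nfu_g_1_002532, second in rank, split run B. Its values there were 34.7, 93.4, 107, 20.7 and 20.2 CPM, so replicates 7 and 8 stood far above replicates 9 and 10, which had the lowest values of the whole 27-week group. Run A gave 33.3, 44.7, 38.8, 28.4 and 21.9 CPM. At 9 weeks exercised livers had 8.45, 12, 11.2, 5.23 and 7.67 CPM and unexercised livers 5.23, 7.84, 5.97, 7.62 and 7.41 CPM. Exercised replicates 1, 2 and 3 were above every unexercised library, while replicates 4 and 5 lay within the unexercised range. The ratio of exercised to unexercised means, 1.29, was near the limit of the rule. The fitted log2 difference of the 27-week group was 2.31 ± 0.41 from exercised and 2.71 ± 0.42 from unexercised livers (edgeR, SE).

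The third member had a scattered 9-week level, from 3.89 to 15.3 CPM, and was even across run A at 43.4, 41.8, 46.4, 46.3 and 50.3 CPM. In run B it stood at 25.6, 126.31, 36.4, 27.2 and 57.5 CPM, where replicate 7 was far above the next library. The fourth member was steadier. Its 9-week values reached from 17.8 to 25.5 CPM, its run A from 36.8 to 48.6 CPM, and its run B was 39.8, 73.3, 54.4, 40.0 and 48.5 CPM, again with replicate 7 on top. Its mean rose 2.18-fold between the ages, against 5.18-fold for the third member. Of the first 10 members 6 were at 3-fold or more, and 3 of the last 23 were as well.

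Ranks 5, 7 and 8 shared a lower level in run B. Rank 5 had 18.3, 18.8, 21.5, 8.43 and 10.8 CPM in run A and 10.1, 7.54, 12.8, 6.09 and 7.28 CPM in run B, against 1.92 to 4.21 CPM at 9 weeks. In run A its replicates 4 and 5 fell within the range of run B. Rank 8 went from 6.25 to 10.3 CPM at 9 weeks to 33.3 ± 10.1 CPM in run A and 18.0 ± 5.33 CPM in run B (SD, n = 5 each). Rank 7 went from 1.05 to 2.33 CPM at 9 weeks to 6.43 ± 1.32 and 3.89 ± 0.79 CPM (SD, n = 5 each). The runs overlapped in ranks 7 and 8 too. Run B reached 5.23 CPM in rank 7 and 27.2 CPM in rank 8, and run A fell to 4.95 and 21.0 CPM. Ranks 6, 9 and 10 also overlapped between the runs. Rank 9 was at 10.5 ± 1.59 CPM in run A and 10.2 ± 2.82 CPM in run B (SD, n = 5 each), with 1.19 to 5.66 CPM at 9 weeks. Rank 6 was at 10.3 ± 3.74 and 9.75 ± 3.54 CPM (SD, n = 5 each) over 1.83 to 4.48 CPM at 9 weeks. Rank 10 was at 13.4 ± 1.88 and 17.3 ± 4.94 CPM (SD, n = 5 each) over 2.54 to 8.45 CPM.

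**Figure D2:**
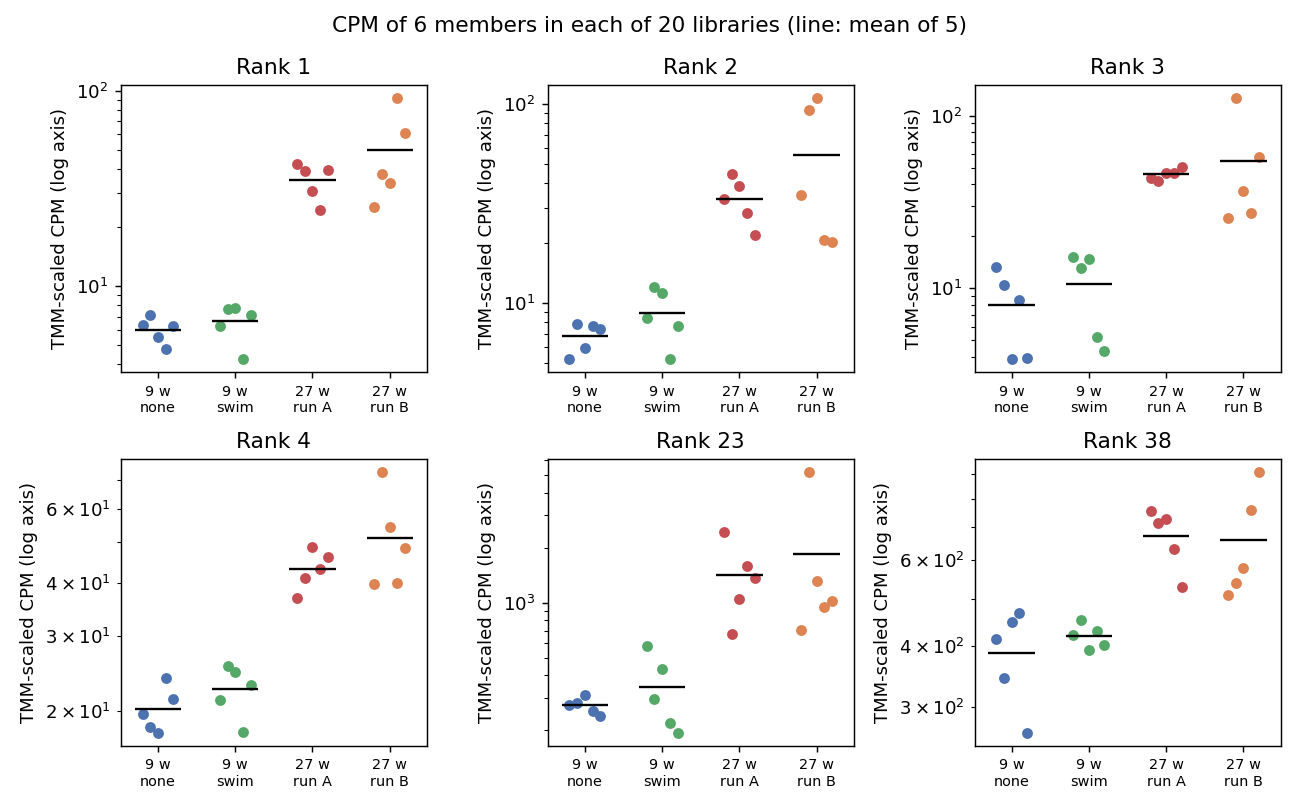
Each panel plots the TMM-scaled CPM of one member (log axis) in each of the 20 libraries, by group and title run, with a line at the mean of 5. In ranks 1, 2, 3, 4, 23 and 38 no library at 27 weeks falls to the 9-week range, and in ranks 3, 4 and 23 a single library of run B, replicate 7, is the highest of all.

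The most abundant member, rank 23, was also the most uneven of the abundant ones. It had 2426, 676, 1041, 1591 and 1364 CPM in run A and 710, 5203, 1308, 944 and 1022 CPM in run B. At 9 weeks exercised livers had 581, 298, 435, 218 and 194 CPM and unexercised livers 275, 282, 313, 257 and 240 CPM. Replicate 7, at 5203 CPM, was 2.14 times the next 27-week library. Without it the ratio of run A to run B went from 0.77 to 1.42 and the ratio between the ages from 5.26 to 3.98. Exercised replicate 1 at 9 weeks came within 1.16-fold of the lowest 27-week library. Scaled for the gene length implied by the deposited tables (1669 bp), its mean level rose from 185 to 976 CPM per kilobase (kb) and was the highest of all members at 27 weeks. Rank 38, second in abundance, went from 266 to 468 CPM at 9 weeks to 510 to 910 CPM at 27 weeks. It had the highest level per length at 9 weeks, 280 CPM per kb, and 460 CPM per kb at 27 weeks. Rank 84 was the third in abundance and favoured run B, where it stood at 215, 258, 368, 178 and 167 CPM, against 94.0 to 187 CPM in run A. At 9 weeks it ranged from 32.7 to 69.4 CPM in unexercised livers and from 46.8 to 90.7 CPM in exercised ones, where replicate 5 was the highest.

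By mean level, 51 members had 1 to under 10 CPM, 68 had 10 to under 100 and 4 had 100 or more. The lowest class held 41.5% of the members and 49.8% of the range, and the middle one 55.3% and 44.8%. The members were 0.722%, 1.07% and 0.53% of all genes in the same ranges. The sparsest case, rank 123, rested on 1 to 16 counts per library at 9 weeks and 26 to 105 at 27 weeks. Its lowest 27-week value, 0.513 CPM, was barely above its highest 9-week value, 0.510 CPM. By their per-length level, members had a median of 3.86 CPM per kb at 9 weeks and 7.87 CPM per kb at 27 weeks, where the genes of the same abundance range had medians of 3.60 and 3.89 CPM per kb. The implied length of members was 2608 bp by the median, from 384 to 10231 bp, against 2901 bp for the range. Members under 1000 bp made up 17.1%, against 15.1% of the range. No pair of members had consecutive identifier numbers, and 6 members stood next to another member in the order of the deposited table, whose meaning is not given.

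The 2 title runs differed in level within the members. The log2 ratio of means over exercised livers at 9 weeks had a median of 1.04 for run A and 0.62 for run B, and over unexercised livers 1.01 and 0.62. Both runs share the same 9-week libraries in these values. In 100 of the 123 members run A had the higher mean, and in 23 run B did. Of the 14161 genes, 54.9% were higher in run A. With DESeq2 size factors the member counts were 97 and 26 (54.0% of the range higher in run A). With upper-quartile factors they were 87 and 36 (49.4%), and with library totals all but 4 and 4 (76.6%). Under all 4 scalings, 87 members had the higher mean in run A. The ratio of the runs was at least 1.5 in 37 members, at or below its inverse in 3 and within 1.2-fold in 40. In 37 members every library of run A was above every one of run B, and in 0 the reverse held, beside 18.2% and 15.2% of the 14161 genes. Between the runs, edgeR's quasi-likelihood test with Benjamini-Hochberg adjustment called 57 members higher in run A and 1 lower, where 25.9% and 20.1% of 16157 genes were called. The rule required both runs to lie above the 9-week libraries and capped the difference between them, so these counts only describe the genes that passed. Among genes with separated ages, those beyond the cap were 33 genes higher in run A and 0 higher in run B.

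Rank 30 had the largest ratio between the runs, 1.94, with 3.38 ± 0.65 CPM in run A and 1.5 ± 0.34 CPM in run B (SD, n = 5 each), over 0.593 to 1.04 CPM at 9 weeks. Its 5 run A libraries were all above the 5 of run B. Rank 116, with a ratio of 1.94 as well, stood at 22.5 ± 5.98 and 11.4 ± 4.17 CPM (SD, n = 5 each). There the runs overlapped, since replicate 7 of run B had 18.7 CPM and replicate 4 of run A had 14.8 CPM. The third member from the end of the ranking stood at 74.9, 73.4, 80.7, 55.4 and 63.0 CPM in run A and at 31.9, 43.5, 39.3, 30.2 and 35.4 CPM in run B. Unexercised livers at 9 weeks reached 30.1 CPM in this gene, so replicate 9 at 30.2 CPM only just cleared them. In the other direction the lowest ratios were 0.52 in rank 84, 0.61 in rank 2 and 0.65 in rank 37. Rank 37 had 4.08, 5.03, 3.12, 5.20 and 3.59 CPM in run A and 5.78, 3.19, 5.94, 12.5 and 6.43 CPM in run B, with replicate 9 above all others.

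Single libraries carried part of the level in some members. In 16 members at least 1 library at 27 weeks exceeded the 27-week median more than 2-fold, among them 5 in replicate 1, 4 in replicate 7 and 3 each in replicates 8 and 9. The most uneven member was rank 111, chosen for mention after its values were seen. Its run A stood at 1.71, 1.91, 2.88, 2.28 and 37.3 CPM, so replicate 5 stood alone, and the lowest was barely above the 9-week maximum of 1.69 CPM. Its run B was even, at 5.75, 8.99, 4.66, 5.25 and 5.12 CPM. Its ratio between the ages was 4.52-fold with all libraries and 2.67-fold without replicate 5. The ratio of run A to run B went from 1.505 to 0.418 without that library, and so changed direction.

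Exercise at 9 weeks left the members close together, as the rule required. The median ratio of exercised to unexercised means was 0.98, beside 0.99 over the abundance range, with 52 members higher and 71 lower in exercised livers, where 47.6% of the range was higher. These counts were also 52 and 71 with DESeq2 size factors, but 63 and 60 with upper-quartile factors (52.8% of the range higher) and 9 and 114 with library totals (21.2%). The ratio was within 1.1-fold in 75 members and within 1.2-fold in 108. In 0 members did all exercised libraries exceed all unexercised ones, and in 2 the reverse held, beside 3.28% and 5.8% of the 14161 genes. Of the 123 members, edgeR's quasi-likelihood test with Benjamini-Hochberg adjustment called 0 between the 9-week groups, where 0.0175% of 17118 genes were called. At an unadjusted p under 0.05 it had 0 members and 11.9% of all genes. DESeq2's Wald test called 0 members and 2.36% of 17054 genes, with 2 members and 13.7% of genes at an unadjusted p under 0.05. With limma-voom these were 0 members and 0.0117% of genes, and 0 members and 11.3% of genes. All these fits held the 2 runs at 27 weeks as 1 group, and the share of all genes called depended on that. With the runs as separate sets, edgeR called 1060 of 17118 genes and 0 members, with 7 members at an unadjusted p under 0.05. With the 9-week groups only, it called 1261 of 16304 genes and 0 of 122 members, with 9 at an unadjusted p under 0.05. The rule kept the exercise difference small, so nothing is read from these counts. The ratio was highest in rank 3, at 1.29, where exercised livers had 15.3, 13.0, 14.8, 5.20 and 4.35 CPM and unexercised livers 13.3, 10.5, 3.89, 8.50 and 3.96 CPM. The groups overlapped there, with exercised replicates 1 and 3 above every unexercised library. It was lowest in rank 10, at 0.78, followed by the third member from the end and rank 18. In rank 18, exercised livers had 11.8, 7.40, 9.28, 12.4 and 10.9 CPM and unexercised livers 13.8, 13.4, 12.1, 13.0 and 13.8 CPM, so only the highest exercised library reached the unexercised range. At 27 weeks rank 18 stood at 16.4 to 34.4 CPM.

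Of the 176 genes with fully separated ages, the limits left out 53. The limit on exercise alone removed 20, the limit on the runs alone 23 and both limits 10. All 33 genes beyond the limit on the runs were higher in run A. Of the 30 beyond the limit on exercise, 27 were lower and 3 higher in exercised livers. Over the 14161 genes of the range, the run ratio had quartiles of 0.75 and 1.53 and the exercise ratio 0.85 and 1.13. Both splits are among genes chosen for separated ages, so nothing is read from them. The exercise ratios nearest the limit were 1.29 inside it and 0.77 outside, and the run ratios nearest theirs 1.94 and 2.01. On the gap itself, the lowest member had a ratio of 1.0025 and the nearest gene outside 0.99986. In all, 98 genes outside that met the other limits had a ratio from 0.95 to 1, that nearest gene among them. Of the members, 88 were under 1.1, whereas 15 were at 1.2 or more and 3 at 1.5 or more.

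**Figure D3:**
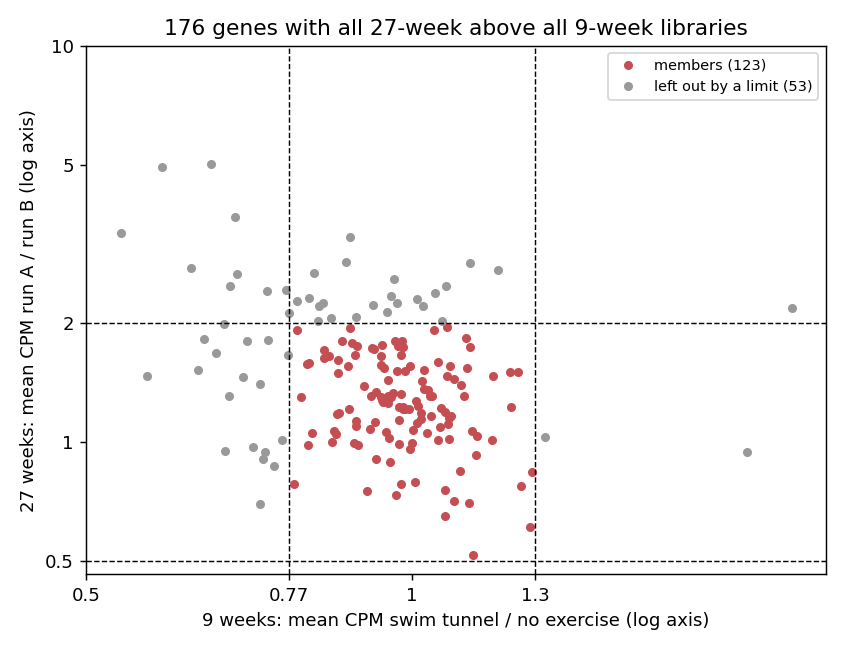
Each point is one of the 176 genes with all 27-week above all 9-week libraries, by its ratio of exercised to unexercised means at 9 weeks (x) and of run A to run B at 27 weeks (y), both on log axes, with the limits of the rule dashed. The 53 genes outside the limits lie mostly above the upper run limit or to the left of the lower exercise limit, and 0 lie below the lower run limit.

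A few libraries set the gap for most members. The lowest 27-week library belonged to run B in 98 of 123 members, in 46 to replicate 6 and in 22 to replicate 7. The highest 9-week library was unexercised in 74 and exercised in 49, and it was unexercised replicate 4 in 30. Replicate 6 had the smallest median shift of all 27-week libraries. Over the members, the median log2 ratio to the 9-week mean was 0.43 in that library, 0.52, 0.77, 0.63 and 0.62 in replicates 7 to 10, and 0.97, 0.99, 1.02, 0.90 and 1.01 in replicates 1 to 5. The 9-week libraries lay between -0.10 and 0.09. With replicate 6 left out the same rule gave 249 genes, of which 123 were the members. Leaving out any other single library gave 1 to 46 genes more than the 123. All members were kept without replicate 2 or replicate 3 at 27 weeks, and some were lost without each of the others. The fewest were kept without exercised replicate 5 at 9 weeks, where 111 of the 123 still met the rule. Without replicates 4 and 5 there were 13 more, and 114 of the genes then meeting the rule were members.

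The gap also depended on how libraries were scaled. The mean TMM factor was 1.25 ± 0.24 in run A and 0.87 ± 0.02 in run B, and 1.06 ± 0.12 in unexercised and 0.89 ± 0.02 in exercised livers at 9 weeks (SD, n = 5 each). When library totals replaced TMM, 36 of the 123 members kept all 27-week libraries above all 9-week ones. They were 17 of the first 25 ranks, 13 of ranks 26 to 75 and 6 of ranks 76 to 123, and 9 of the first 10. Run B cleared the 9-week libraries in 37 members and run A in all but 1. Under library totals the highest 9-week library was unexercised replicate 2 in 63 members. That library had the smallest total (22.4 M). Among the 9-week libraries it also had the highest TMM factor (1.21) and the lowest share of counts in its 100 most abundant genes (44.5%). With upper-quartile factors 98 members stayed separated and with DESeq2 size factors all but 4. The 27-week mean of both runs together was above the mean of each 9-week group in all 123 members under all 4 scalings. With library totals, the mean of run B alone was above the unexercised mean in all but 4 members.

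**Figure D4:**
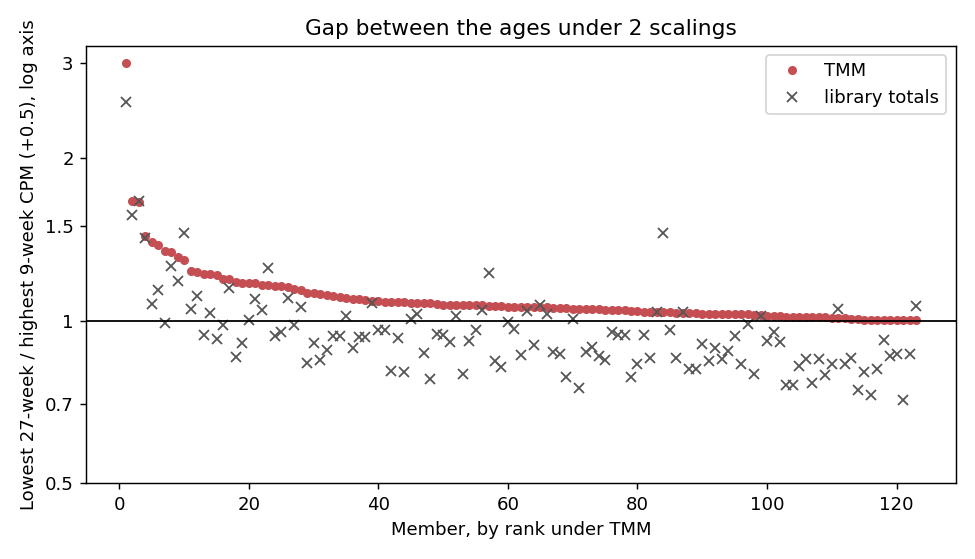
The ratio of the lowest 27-week to the highest 9-week CPM (+ 0.5, log axis) is plotted for each member by rank, as filled points with TMM factors and as crosses with library totals, with a line at 1. All 123 filled points are above the line by construction, and 36 crosses are.

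Library totals moved the median of all genes in the range as well. That median, on the log2 scale, went from 0.05 to 0.27 for 27 weeks against exercised livers, from 0.03 to 0.03 against unexercised livers, from -0.02 to -0.24 for exercise at 9 weeks and from 0.10 to 0.58 between the runs. Relative to it, the members' median log2 difference was 0.79 with TMM and 0.83 with totals against exercised livers, 0.79 and 0.83 against unexercised livers, -0.014 and -0.0033 for exercise at 9 weeks, and 0.23 and 0.26 between the runs. A scaling factor multiplies all genes of a library alike, so taking the members relative to the range largely cancels the scaling. The similar values under both scalings follow from this calculation and are no check on the members' level. The separation of single libraries did change with the scaling.

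**Figure D5:**
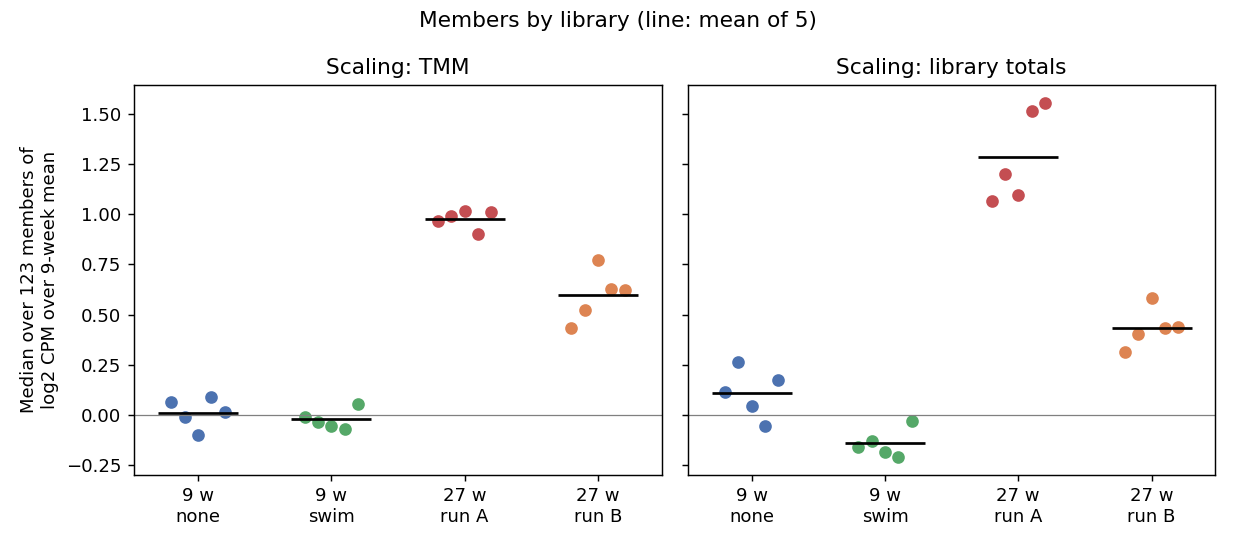
For each library, the median over the 123 members of the log2 ratio of CPM to the 9-week mean is plotted by group and title run, with TMM factors on the left and library totals on the right, and a line at the mean of 5. With TMM the 27-week libraries lie from 0.43 to 1.02, and with totals run A spreads up to 1.56 while run B starts at 0.32 and unexercised 9-week libraries reach 0.26.

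Members varied less within groups than the genes of their range, which a rule of separated groups favours. The median coefficient of variation (CV) was 12.8% in unexercised and 12.3% in exercised livers at 9 weeks, against 18.1% and 16.5% for the range. At 27 weeks it was 24.6% against 33.8%, with 14.6% within run A and 16.4% within run B, against 23.2% and 19.8% for the range. The highest 27-week library was 1.94 times the lowest by the median, from 1.25 to 17 times, against 1.48 times at 9 weeks. For the genes of the range these medians were 2.53 times at 27 weeks and 1.81 times at 9 weeks. The steadiest member at 27 weeks was rank 94, also chosen after its values were seen, with 107 ± 3.59 CPM in run A and 112 ± 11.6 CPM in run B, over 76.6 ± 9.97 CPM in unexercised and 76.4 ± 8.98 CPM in exercised livers (SD, n = 5 each). The smallest fold between the ages, 1.29, was that of rank 62, which stood at 33.5 to 44.1 CPM at 9 weeks and 46.8 to 62.5 CPM at 27 weeks. After each library was centred on the mean of its group or run, the log2 CPM of 2 members correlated across the 20 libraries with a median r of 0.14 over 7503 pairs, against 0.00 over all pairs of the range. The pairs share libraries, depth and scaling factors, so this is a description, and 13.7% of member pairs exceeded 0.5 where 6.44% of all pairs did.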

How the data were processed

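Liver RNA was extracted and made into TruSeq RNA v2 libraries, per the labels' protocols. The authors deposited raw counts per gene identifier. Tools named by the submitters' processing notes are STAR 2.4.1d, featureCounts 1.4.6-p4 and bcl2fastq 1.8.4. Strand setting, genome build and the treatment of multi-mapped reads are, in the sources used here, not given, so near-identical, overlapping or antisense genes are uncertain. A second table, deposited as RPKM and treated here as a score, was not comparable between libraries, because each count had been divided by a total cycled down the table (CV of the implied gene length 0.0014% by the median with cycled totals, 23.5% with own totals, over 3127 genes). It served only for gene lengths. CPM were computed with TMM factors (edgeR 4.0.16, R 4.3.3) and no filter. Tests across all genes used filterByExpr, TMM, robust dispersions and edgeR's two-sided quasi-likelihood F-test, called at 0.05 after Benjamini-Hochberg adjustment over all genes. All 20 libraries entered 1 fit of the 3 groups, and the runs were compared in the 10 libraries at 27 weeks. The SE printed with a fitted log2 difference was derived from this test, as the absolute log2 difference divided by the square root of F. The tests set a difference between groups against the spread between libraries, and that spread may be technical. The script was tested on simulated data. DESeq2 1.42.0 and limma 3.58.1 were alternatives.

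The members, lists and tests were chosen with earlier results of these data known. Identifiers are printed for the first 2 ranks. Values by rank are given for ranks 3 to 10, the 3 most abundant, and the 3 at each end of the run and exercise ratios. Ranks 62, 94, 111 and 123 fall outside this rule and were chosen after their values were seen. The marker list fixed for liver and other cell types could not be applied, since no identifier has a symbol.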

Additional observations from a re-analysis of the deposited data

Results flagged for a closer look

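Among 57 sets of values of 1 group, covering the 18 members described by rule and the median over all members, 6 held 1 library apart from the rest by Dixon's criterion, and about 1 in 20 is flagged by chance. Replicate 7 at 27 weeks was the library apart in 3 of them. It had 126.31 CPM of rank 3 against 25.6 to 57.5 CPM in the other 9, 73.3 CPM of rank 4 against 36.8 to 54.4 CPM, and 5203 CPM of rank 23 against 676 to 2426 CPM. Replicate 9 at 27 weeks had 12.5 CPM of rank 37 against 3.12 to 6.43 CPM. Exercised replicate 5 at 9 weeks had 8.45 CPM of rank 10 against 2.54 to 3.89 CPM, and 90.7 CPM of rank 84 against 46.8 to 55.3 CPM.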

How the results depend on the processing

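When library totals replaced TMM, 34 genes met the rule in place of 123 (0.239% of the abundance range in place of 0.869%). Of these 34 genes, 25 were members. Under totals 36 members stayed separated, and 99 members were called between the runs in place of 58. Against unexercised livers 101 members were called in place of 123, and against exercised livers all 123 still were. The members' median log2 difference was then 1.1 against exercised livers, -0.24 for exercise and 0.84 between the runs. Other settings were the other scalings, a pseudocount of 2, the limits on exercise, run and abundance, and the other tools and fits. They kept the numbers of genes meeting the rule, members separated and members called within 1.5 times. With upper-quartile factors, 95 of the 112 genes meeting the rule were members. The medians stayed within 1 SD between libraries. That SD was taken at 27 weeks for the ages, in unexercised livers for exercise and in run B for the runs. At 27 weeks it was 0.22 over both runs together, which includes the difference between the runs, and it was smaller within each run. The median of 27 weeks against all 9-week libraries went from 0.85 to 0.72 with a pseudocount of 2. Between the runs the median went from 0.33 to 0.21 with upper-quartile factors, where the SD was 0.13 in run B and 0.05 in run A. Leaving out single libraries left 0.875% to 1.76% of the range by the rule (249 genes at most), where fewer libraries have to be separated. It gave 46 to 58 member calls between the runs, 120 to 123 against unexercised and 123 to 123 against exercised livers, and 0 to 0 for exercise. In all these fits the members were those chosen on all 20 libraries, by a rule that used or capped the same contrasts. The counts of member calls were thus largely set beforehand and are no check on the members. Over all genes, exercise calls went from 3 to 402 with DESeq2, 1060 with the runs apart, 1261 with the 9-week groups only and 73 without replicates 4 and 5 (0 of them members), and to 20 and 5 without exercised replicates 5 and 4. Those against unexercised livers went from 3390 to 6089 with the runs apart and 2240 with the compared groups only, and to 2112, 1861 and 1992 without unexercised replicates 1, 3 and 5. With library totals, 2965 higher and 2244 lower genes against exercised livers became 3550 and 1296, 1849 and 1541 against unexercised livers became 911 and 1657, and 4191 and 3247 between the runs became 7468 and 1359. No paired analysis was possible because the titles give no replicate number that groups share. The fits without replicates 4 and 5, and of all libraries with the runs apart for the run comparison (61 members), were added after the data were seen. So was the value of rank 111 without replicate 5, whose log2 ratio of run A to run B went from 0.59 to -1.26.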
